A study of Homo sapiens with 6 samples.

Results

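Golgins are long coiled-coil proteins that stand on the membranes of the Golgi apparatus and catch incoming vesicles, each at its own face of the stack. The GRASP proteins (Golgi reassembly stacking proteins) bind golgins and join neighbouring cisternae into stacks and ribbons. Some golgins are held in place by a membrane span at their end, and others by a GRIP domain. In some of the latter this domain binds the small GTPase ARL1 on the trans-Golgi. Golgins and GRASPs are phosphorylated in mitosis, when the Golgi is taken apart and divided between the daughter cells.

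The transcripts of 10 such genes were followed here: the golgins GOLGA1, GOLGA2, GOLGA3, GOLGA4, GOLGA5, GOLGB1 and GCC1, the vesicle tether USO1, and the stacking proteins GORASP1 and GORASP2. They were picked by gene symbol, and all 10 were found among the 16376 genes of the deposited FPKM table (fragments scaled to the length of the transcript and to the size of the library). They were proposed with the Agrimol B against control differences of these same libraries in view. Their differences in that comparison are therefore given as a description, with no p-value, and support no further statement. RNA came from HOS, a cell line from a human osteosarcoma (a bone tumour), labelled wild type in every library. Cells in 3 libraries had received Agrimol B, a phloroglucinol derivative of agrimony plants, for 24 h, and cells in 3 control libraries are labelled as having had no treatment. Neither a dose nor a solvent for the controls is given in the sources used here. Nothing in the labels says that libraries of a group came from separate cultures, so their spread may be only technical.

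Across the 12143 tested genes, log2(FPKM + 1) correlated at a Pearson r of 0.986 to 0.988 between 2 libraries of the same group, and at 0.947 to 0.950 between an Agrimol B and a control library. The number of reads is unknown. The depth of each library relative to the first control library, estimated from genes with very few fragments, lay between 0.989 and 1.18. The estimate took the most common ratio of values under 0.05 FPKM for each pair of libraries. It is rough, as 4.98% to 10.8% of the 266 to 405 genes used per pair lay within 0.01 log2 of that ratio. Of the osteoblast lineage markers, COL1A1 stood at 286 to 307 FPKM in Agrimol B and 411 to 436 FPKM in control libraries, while BGLAP (osteocalcin) stayed under 1 FPKM in all 6. Of the 6 tested osteoblast lineage markers, 1 rose and 4 fell, against 30.6% and 21.4% of all tested genes. SPP1 and ALPL are named after their values were seen. SPP1 rose 2.18-fold (limma adjusted p = 0.000882), and ALPL fell 2.15-fold (limma adjusted p = 0.000375). The defining markers of blood cells (PTPRC) and endothelial cells (PECAM1) were near 0, at 0.0578 and 0.0391 FPKM or less in every library. The endothelial markers CDH5, VWF and KDR stayed at 0.41, 0.378 and 0.279 FPKM or less and were not tested. CDH5 and VWF had lower means with Agrimol B than in control libraries, and KDR a higher mean. The monocyte marker CD14 was low, at 0.393, 0.597 and 0.774 FPKM with Agrimol B and 1.31, 1.19 and 1.81 FPKM in control libraries. The epithelial surface protein EPCAM stood at 12.8 to 14.7 FPKM in Agrimol B and 13.0 to 14.3 FPKM in control libraries. The keratin KRT5 stood at 10.45 FPKM in the third Agrimol B library and under 1 FPKM in the other 5. The keratin KRT19 stood at 0, 3.17 and 2.68 FPKM with Agrimol B and at 0, 0.0358 and 0.210 FPKM in control libraries, and 0 of the 3 tested epithelial markers passed; the part of these markers in the results was not tested.

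Promoter sequences are shown for the 2 golgins with the largest differences (GOLGA2 and GOLGA3), for the member with the smallest (GORASP2), and for 2 further members that hold the Golgi stress element described below (GOLGA1 and GOLGA5). Each is the 250 bases before the RefSeq start site on GRCh38.p14, 5′ to 3′ on the gene's strand. Capitals mark any motif that was searched for and found. The regions are chr9:128276008-128276257 (minus strand) for GOLGA2, chr12:132829082-132829331 (minus strand) for the first of the 3 listed starts of GOLGA3, and chr2:170929003-170929252 (plus strand) for GORASP2. Those of GOLGA1 and GOLGA5 are chr9:124941084-124941333 (minus strand) and chr14:92794055-92794304 (plus strand).
GOLGA2: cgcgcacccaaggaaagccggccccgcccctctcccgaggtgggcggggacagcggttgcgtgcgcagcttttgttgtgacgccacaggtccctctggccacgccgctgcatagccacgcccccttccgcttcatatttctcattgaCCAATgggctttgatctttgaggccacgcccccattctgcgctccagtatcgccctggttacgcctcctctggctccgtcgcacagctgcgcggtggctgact
GOLGA3: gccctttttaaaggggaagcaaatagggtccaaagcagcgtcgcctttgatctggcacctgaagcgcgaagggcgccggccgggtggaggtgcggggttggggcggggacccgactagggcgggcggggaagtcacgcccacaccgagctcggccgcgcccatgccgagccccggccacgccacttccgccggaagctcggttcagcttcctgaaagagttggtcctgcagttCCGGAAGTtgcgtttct
GORASP2: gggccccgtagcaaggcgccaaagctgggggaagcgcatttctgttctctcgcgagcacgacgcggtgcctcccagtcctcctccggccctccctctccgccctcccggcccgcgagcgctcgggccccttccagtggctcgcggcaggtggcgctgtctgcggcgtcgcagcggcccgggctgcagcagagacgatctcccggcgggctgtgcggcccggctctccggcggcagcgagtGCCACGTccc
GOLGA1: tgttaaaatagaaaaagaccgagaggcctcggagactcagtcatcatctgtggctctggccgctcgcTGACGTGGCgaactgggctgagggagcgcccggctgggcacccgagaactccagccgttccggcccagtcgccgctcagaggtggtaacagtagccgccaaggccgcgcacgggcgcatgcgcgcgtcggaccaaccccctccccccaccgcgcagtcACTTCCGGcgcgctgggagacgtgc
GOLGA5: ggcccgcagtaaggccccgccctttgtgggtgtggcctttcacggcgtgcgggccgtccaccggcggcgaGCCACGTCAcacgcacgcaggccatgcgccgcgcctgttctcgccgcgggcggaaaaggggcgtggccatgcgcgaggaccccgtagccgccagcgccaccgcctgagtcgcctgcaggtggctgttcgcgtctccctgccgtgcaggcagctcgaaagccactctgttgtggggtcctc

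By group means all 10 transcripts stood higher with Agrimol B, by ratios that ran from 4.52-fold for GOLGA2 to 1.12-fold for GORASP2. For 9 of the 10 genes all 3 Agrimol B values lay above all 3 control values; 36.2% of the 12143 tested genes did the same. In the fit across all tested genes, 8 of the 10 were higher at an adjusted p under 0.05 and 0 were lower, against 30.6% of all tested genes called higher and 21.4% called lower. Because of how the genes were chosen, nothing is read from these counts. The median log2 difference of the 10 on the log2(FPKM + 1) scale was 0.87, and that of all tested genes was 0.07. In bulk RNA, a change in the make-up of the cells and a change in RNA per cell cannot be told apart.

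**Figure D1:**
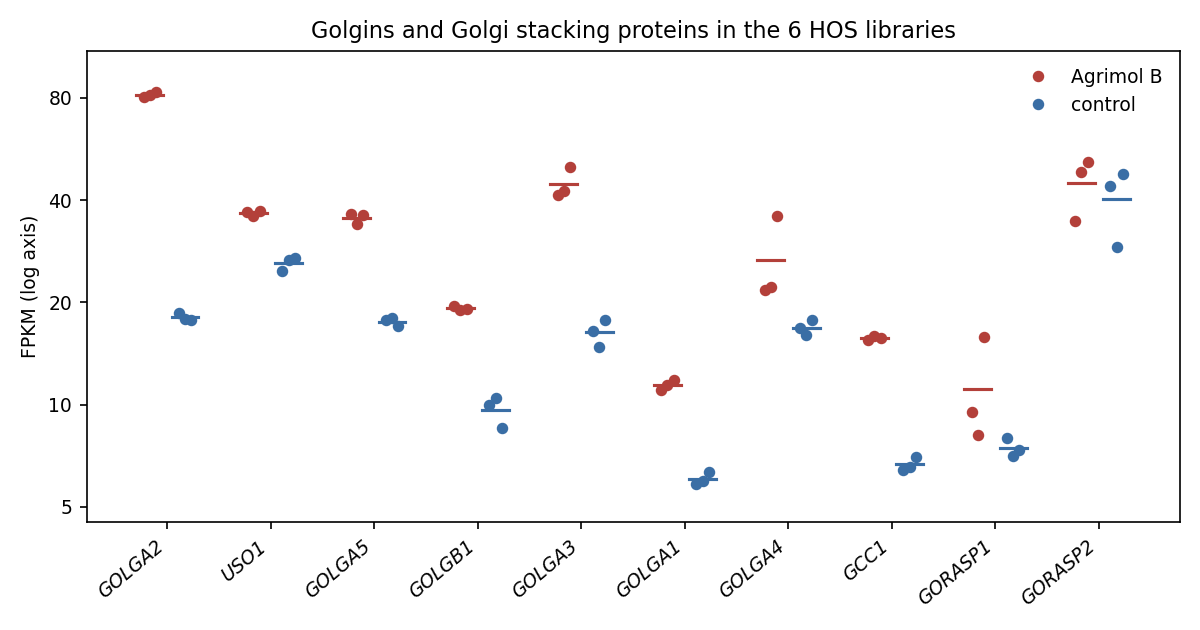
FPKM of each of the 10 genes in every library on a log axis, with Agrimol B libraries in red to the left of control libraries in blue. Points are libraries (3 per group) and bars are group means. The Agrimol B points of GOLGA2, at 80.3 to 83.3 FPKM, stand farthest above their control points, while the 2 groups of GORASP2 overlap.

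GOLGA2 encodes GM130, the cis-Golgi golgin that binds GRASP65 and the tether p115 (chromosome 9, 128255829 to 128275995, minus strand). GOLGA2 stood at 80.3, 81.3 and 83.3 FPKM in the Agrimol B libraries, against 18.55, 17.9 and 17.8 FPKM in the control libraries. The spread within each group was small beside the gap between them, and by log2 difference (2.12 ± 0.0390, SE) the gene ranked 20 of 12143. It overlaps SWI5 on the other strand. It made up 25.0% ± 1.51 of the summed FPKM of the 10 genes with Agrimol B and 11.0% ± 0.80 in control libraries (SD, n = 3 each).

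USO1 encodes p115, the tether that links COPI vesicles to GM130 and giantin (chromosome 4, 75724593 to 75814286, plus strand). Its values were 36.9, 35.8 and 37.3 FPKM with Agrimol B and 24.8, 26.6 and 27.0 FPKM in control libraries. The 2 groups did not overlap, and the ratio of means was 1.40, the smallest among the 8 genes called higher.

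GOLGB1 and GOLGA5 encode giantin and golgin-84, golgins that end in a membrane span and sit at the rims of the cisternae. GOLGB1 (chromosome 3, 121663199 to 121749767, minus strand) stood at 19.5, 19.0 and 19.1 FPKM with Agrimol B, against 9.96, 10.4 and 8.51 FPKM in control libraries. GOLGA5 (chromosome 14, 92794231 to 92839963, plus strand) stood at 36.3, 33.9 and 36.2 FPKM with Agrimol B and at 17.7, 18.0 and 17.0 FPKM in control libraries. The pair had nearly the same ratio of means, 1.99 for GOLGB1 and 2.02 for GOLGA5, with no overlap of groups in either.

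GOLGA3 encodes golgin-160, which caspases cut in apoptotic cells (chromosome 12, 132768909 to 132828858, minus strand). It stood at 41.3, 42.5 and 49.98 FPKM in Agrimol B libraries, against 16.4, 14.8 and 17.7 FPKM in control libraries. Its ratio of means, 2.73, was the second largest, and its spread within groups was wider than that of GOLGA2 (coefficient of variation, the SD over the mean, 10.5% with Agrimol B and 9.0% in control libraries, against 1.86% and 2.34%). It overlaps CHFR on its own strand.

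The trans-Golgi golgins with a GRIP domain differed among themselves. GCC1 (GCC88; chromosome 7, 127580618 to 127593611, minus strand) had 15.5, 15.9 and 15.7 FPKM with Agrimol B and 6.43, 6.54 and 7.03 FPKM in control libraries, a ratio of 2.36. GOLGA1 (golgin-97; chromosome 9, 124878357 to 124948492, minus strand) had 11.04, 11.45 and 11.85 FPKM with Agrimol B and 5.85, 5.97 and 6.34 FPKM in control libraries, a ratio of 1.89. In both genes the groups stood well apart. GCC1 overlaps ARF5 and FSCN3 on the other strand, and GOLGA1 overlaps SCAI on its own strand.

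GOLGA4 (golgin-245; chromosome 3, 37243177 to 37366751, plus strand) was less even. Its Agrimol B values were 21.7, 22.2 and 36.0 FPKM, against 16.8, 16.0 and 17.8 FPKM in control libraries. The groups did not overlap, but the third Agrimol B library stood far above the other 2, and the log2 difference of 0.60 ± 0.192 (SE) became 0.37 without it. The gene was called in 7 of the 13 fits made, among them the fit without the third Agrimol B library. GCC2 (GCC185), the fourth GRIP golgin and outside the 10, had 7.60, 8.35 and 8.22 FPKM with Agrimol B against 5.90, 6.06 and 7.56 FPKM in control libraries and did not pass (limma adjusted p = 0.0527). About 9.98% of the 50-base stretches of its transcript also occur in transcripts of other genes, chiefly of the RGPD family, so its value is uncertain.

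The stacking proteins were the 2 members not called, which is a description and does not set them apart from the golgins. GORASP1 encodes GRASP65, the partner of GM130 at the cis face (chromosome 3, 39096659 to 39108363, minus strand). It stood at 9.48, 8.16 and 15.8 FPKM with Agrimol B and at 7.95, 7.04 and 7.35 FPKM in control libraries. The groups just missed each other, and the third Agrimol B library again stood apart: the log2 difference of 0.47 ± 0.223 (SE) became 0.21 without it.

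GORASP2 encodes GRASP55 of the medial Golgi (chromosome 2, 170928464 to 170967129, plus strand). Its values were 34.7, 48.4 and 51.9 FPKM with Agrimol B and 44.0, 29.1 and 47.6 FPKM in control libraries. The groups overlapped widely, the log2 difference was 0.17 ± 0.226 (SE), and it turned to -0.04 without the second control library.

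By level, which FPKM gives per length of transcript, the order of the genes was not the same in the 2 groups. With Agrimol B, GOLGA2 led at 81.6 ± 1.52 FPKM (mean ± SD, n = 3 here and below). GORASP2 at 45.0 ± 9.08 and GOLGA3 at 44.6 ± 4.70 FPKM overlapped behind it, as did USO1 at 36.6 ± 0.756 and GOLGA5 at 35.5 ± 1.34 FPKM. GOLGA1 at 11.45 ± 0.405 and GORASP1 at 11.15 ± 4.09 FPKM overlapped at the low end. In control libraries GORASP2 led at 40.2 ± 9.78 FPKM, followed by USO1 at 26.1 ± 1.16 FPKM. GOLGA2, GOLGA5, GOLGA4 and GOLGA3 came next, at 18.1 to 16.3 FPKM, each overlapping its neighbour. GORASP1, GCC1 and GOLGA1 were lowest, at 7.45 to 6.05 FPKM. The summed FPKM of the 10 genes was 327.5 ± 26.3 with Agrimol B and 164.9 ± 11.2 in control libraries. Without GOLGA2 the sums were 245.9 ± 24.8 and 146.8 ± 11.2 FPKM, a ratio of 1.68.

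Agreement between libraries of a group, a measure that does not rest on the group difference, varied among the 10 genes. The coefficient of variation of 6 of the 10 members with Agrimol B, and of 7 of the 10 in control libraries, lay below the median of all tested genes. The median coefficient of variation was 3.66% for the 10 against 6.81% for all tested genes with Agrimol B, and 5.10% against 6.63% in control libraries. Tested genes reach down to a mean of 1 FPKM, under the level of any of the 10, and the comparison was not matched for level. GORASP2 was among the more variable genes in both groups, at 20.2% with Agrimol B and 24.3% in control libraries, above 88.4% and 91.8% of tested genes. GORASP1 and GOLGA4 varied by 36.7% and 30.4% with Agrimol B, where the third library set the spread, and by 6.23% and 5.40% in control libraries. In GENCODE 29 the transcripts of GOLGA1, GOLGA5, GOLGB1, GORASP2, USO1 and GCC1 shared 0 stretches of 50 bases with other genes. GOLGA2 shared 2.45% of its stretches with 212 other genes. GOLGA3 shared 1.76% with 167 other genes, of which CHFR on its own strand shared the most. GOLGA4 shared the largest part of the 10, 5.15%, all with AC097359.2 on the other strand. GORASP1 shared 3.08% with TTC21A, which overlaps it on the other strand. Nothing in the sources used here says whether strand was used in counting, so reads of such pairs may be mixed.

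The promoter windows of 8 of the 10 genes were found in the RefSeq table, running from 250 bases before to 50 bases after each start. They were searched on either strand for short motifs known from Golgi and endoplasmic reticulum stress and for common promoter motifs. The Golgi stress element GASE (ACGTGGC), a motif bound by TFE3, occurred in 4 of the 10 windows of these genes, those of GOLGA1, GOLGA5 and GORASP2 and 1 of the 3 of GOLGA3. Among all 35116 windows 3.22% held it, and among the windows of tested genes 4.14%. The unfolded protein response element core (TGACGTGG), bound by ATF6 and XBP1, occurred in 2 of the 8, GOLGA1 and GOLGA5, against 0.729% of all windows and 0.896% of those of tested genes. In these 2 genes it overlaps the GASE, so the 2 motifs share most of their letters, as the capitals above show from base -183 in GOLGA1 and base -180 in GOLGA5, counted from the start site.

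GOLGA2, the member farthest from control, held neither element in its window. Of the motifs searched it held a CCAAT box (CCAAT) at base -103, a motif found in 34.6% of all windows and 34.5% of those of tested genes. GORASP2, whose level differed least, held a GASE at base -10. The GASE of GOLGA3 lies at base 9 after its second listed start, outside the stretch printed. GCC1 held a cAMP response element (TGACGTCA) at base -31, found in 1.85% of all windows and 2.78% of those of tested genes. The ETS site (CCGGAAGT) occurred at GOLGA1 and GOLGA3, against 4.14% of all windows and 7.49% of those of tested genes. The E-box (CACGTG), the ATF4 composite element (TGATGNAAT) and 2 endoplasmic reticulum stress elements (ERSE and ERSE-II) occurred in 0 of the 8. Exact letters in a short window are a description and say nothing of whether a factor binds there.

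**Figure D2:**
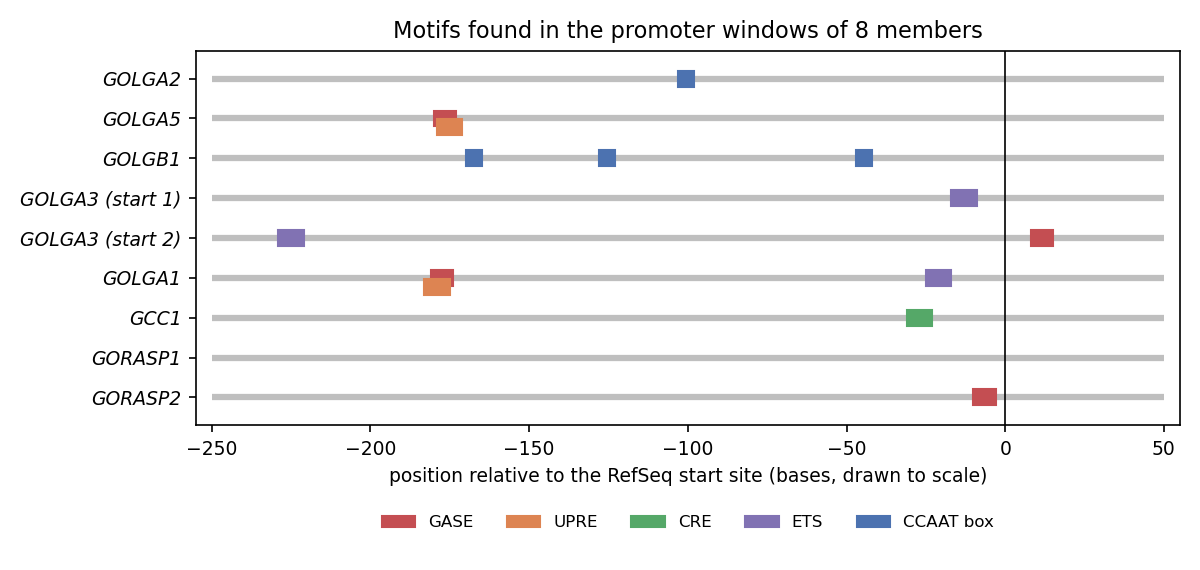
Positions of the motifs found in the promoter windows of 8 members, drawn to scale from 250 bases before to 50 after the RefSeq start site (vertical line). Coloured blocks are motif matches on either strand, 1 row per start site, and the third listed start of GOLGA3, which held 0 matches, is left out. GASE blocks lie near base -180 in GOLGA1 and GOLGA5 and close to the start in GORASP2 and GOLGA3, and GOLGA2 has a CCAAT box only.

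Further golgins and coiled-coil Golgi proteins, which are not among the 10, differed in both directions. Of 16 tested, 7 rose and 2 fell (limma, adjusted over all tested genes), with a median log2 difference of 0.42. Among all tested genes, 30.6% were called higher and 21.4% lower. BLZF1 (golgin-45, which binds GRASP55) rose to 27.1, 28.4 and 26.6 FPKM in Agrimol B libraries, against 10.98, 9.86 and 10.6 FPKM in control libraries (2.61-fold, limma adjusted p = 3.33e-05). TMF1, a golgin that binds RAB6, had 20.2, 19.6 and 20.2 FPKM with Agrimol B and 8.82, 9.16 and 8.34 FPKM in control libraries (2.28-fold, limma adjusted p = 3.73e-05). CCDC186 rose 2.30-fold. TRIP11 (GMAP-210, a cis-Golgi golgin), GORAB and CCDC91 rose by less, between 1.38-fold and 1.54-fold. The call of CCDC91 was lost in 4 of the alternatives (adjusted p 0.0555 to 0.0761). Other genes share 6.97% of the 50-base stretches of TMF1 and 5.5% of those of CCDC91, which leaves both values uncertain.

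BICD2, an adaptor that ties RAB6 vesicles to dynein, fell to 11.1, 11.3 and 11.4 FPKM with Agrimol B, against 19.0, 18.9 and 19.2 FPKM in control libraries (limma adjusted p = 7.03e-05). GOLIM4, a cycling cis-Golgi protein, fell to 15.8 ± 0.210 FPKM with Agrimol B, against 20.3 ± 0.435 FPKM in control libraries (limma adjusted p = 0.000997). CUX1, BICD1, GOLM1 and GOLGA7 did not pass. GOLGA7 stood at 16.6, 35.2 and 35.3 FPKM with Agrimol B and at 27.6, 30.4 and 26.3 FPKM in control libraries. Without the first Agrimol B library its log2 difference turned to 0.32 and passed (limma adjusted p = 0.0192). GOLGA8A and GOLGA8B did not pass either, and 97.3% and 66.0% of their 50-base stretches occur in other genes, mostly each other, so their values are uncertain. GOLGA7B stayed under 1 FPKM and was not tested.

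**Figure D3:**
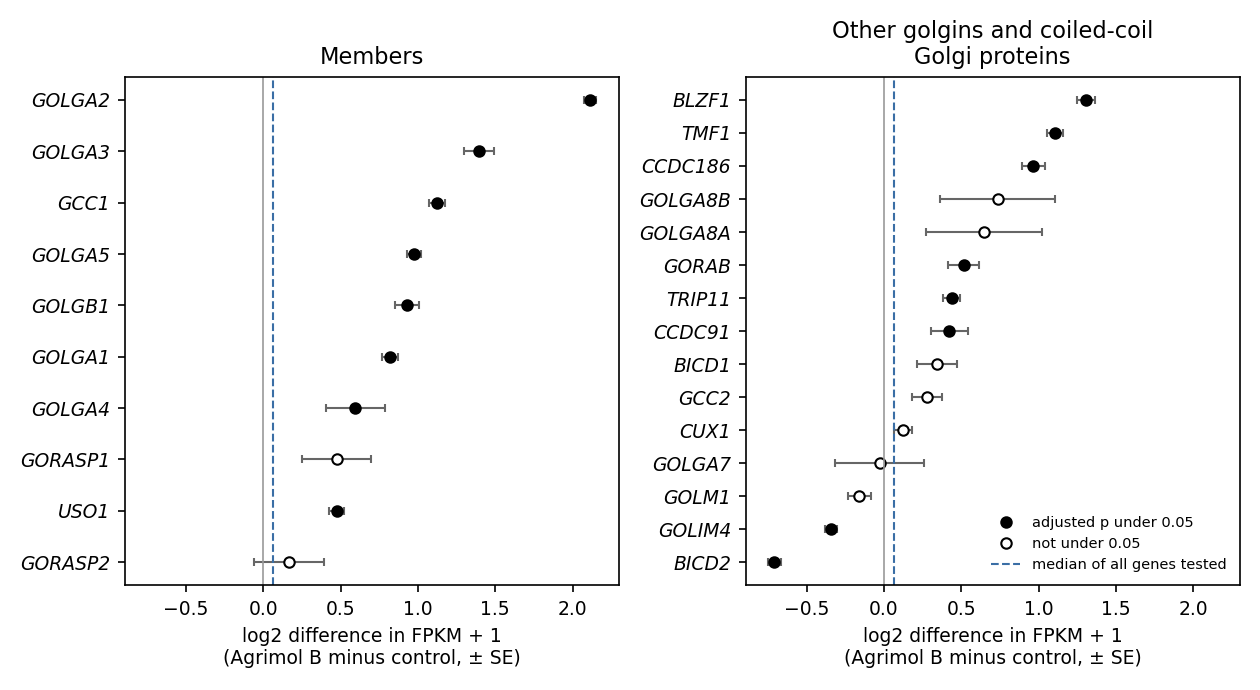
Log2 difference of FPKM + 1, Agrimol B minus control, with the standard error of the fit, for the 10 members (left) and 15 further golgins and coiled-coil Golgi proteins (right). Filled points passed an adjusted p of 0.05 over all tested genes, open points did not, and the dashed line is the median of all tested genes (0.07). For the members, proposed with these differences known, the filling is a description only. All 10 members lie above 0, whereas the further golgins run from -0.71 for BICD2 to 1.31 for BLZF1.

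Small GTPases recruit golgins to their membranes. Of 18 such GTPases and their regulators, 10 rose and 4 fell (median log2 difference 0.41), against 30.6% and 21.4% of all tested genes. ARL1, which binds some GRIP golgins, rose 1.65-fold (limma adjusted p = 0.00167). It stood at 36.9 ± 3.33 FPKM with Agrimol B, against 22.35 ± 2.23 FPKM in control libraries. The RAB1 proteins bind GM130, p115 and golgin-84. RAB1B, chosen after its values were seen, fell to 133 ± 4.35 FPKM with Agrimol B, against 181 ± 3.06 FPKM in control libraries (limma adjusted p = 0.000267). RAB1A did not pass, at 35.5 ± 10.3 FPKM with Agrimol B and 27.55 ± 2.74 FPKM in control libraries.

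Among the multi-subunit tethers that work beside golgins, 5 of 12 COG and GARP subunits and 6 of 14 TRAPP subunits rose. In either group of tethers 0 fell, and among all tested genes 30.6% were called higher and 21.4% lower. With median-ratio or quantile scaling 6 TRAPP subunits rose and 2 fell. Their median log2 differences were 0.23 and 0.18. COG6 rose 2.73-fold to 17.3 ± 0.821 FPKM with Agrimol B, against 6.33 ± 0.533 FPKM in control libraries (limma adjusted p = 6.29e-05), and COG1 rose 1.99-fold. Other genes share 9.41% of the stretches of COG1, so its value is uncertain. TRAPPC6B and TRAPPC9 rose 2.72-fold and 1.82-fold. A non-coding gene on the other strand, AL109628.2, shares 78.3% of the stretches of TRAPPC6B, whose value is uncertain for that reason.

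SNAREs of traffic to, within and from the Golgi, with their fusion factors, rose in 13 of 19 cases and fell in 1. The median log2 difference of this list was 0.51, and among all tested genes 30.6% were called higher and 21.4% lower. BET1L had 30.4, 39.2 and 36.3 FPKM with Agrimol B and 13.4, 13.1 and 11.35 FPKM in control libraries (2.79-fold, limma adjusted p = 0.000196). GOSR2 rose 2.56-fold (limma adjusted p = 0.00355), with 37.8 FPKM in the third Agrimol B library against 23.3 and 21.4 FPKM in the others. Overlapping or similar genes share 17.4% of the 50-base stretches of BET1L and 15.3% of those of GOSR2, so both values are uncertain.

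Of 18 binding partners of golgins and GRASPs, 9 rose and 2 fell (median log2 difference 0.27), against 30.6% and 21.4% of all tested genes. BICD2, named above, is also on this list, among those that fell. ACBD3 (GCP60), which binds giantin, rose to 27.1, 26.8 and 27.5 FPKM with Agrimol B, against 13.0, 12.2 and 12.2 FPKM in control libraries (2.18-fold, limma adjusted p = 3.32e-05). MYO18A, a myosin that links the Golgi protein GOLPH3 to actin, fell to 2.23 ± 0.0875 FPKM with Agrimol B, against 4.69 ± 0.180 FPKM in control libraries (limma adjusted p = 0.00013). TIAF1, on the same strand, shares 13.6% of its stretches. Of 6 mitotic kinase genes whose products act on GM130 and the GRASPs, 0 rose and 5 fell, against the same shares of all tested genes. CCNB1, the cyclin of CDK1, fell to 45.8 ± 0.920 FPKM with Agrimol B, against 97.9 ± 3.01 FPKM in control libraries (limma adjusted p = 2.09e-05), with no overlap of groups. PLK1, which phosphorylates GRASP65, fell to 35.6 ± 6.13 FPKM with Agrimol B, against 54.6 ± 0.836 FPKM in control libraries (limma adjusted p = 0.00536).

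GOLGA2 and GOLGB1 have been described as genes that rise when the Golgi is stressed in cultured cells. Of 14 tested genes of that response, its transcription factors included and the 10 members left out, 8 rose and 2 fell (median log2 difference 0.29). The shares of all tested genes were 30.6% called higher and 21.4% called lower. WIPI1 rose 2.64-fold to 12.1 ± 1.37 FPKM with Agrimol B, against 4.56 ± 0.889 FPKM in control libraries (limma adjusted p = 0.000614), and ACBD3, named above, is also on this list. ARSG on the other strand shares 27.5% of the stretches of WIPI1, whose value is uncertain. The transcription factors were chosen for naming after their values were seen. TFE3 rose to 52.45 ± 0.620 FPKM with Agrimol B, against 39.7 ± 0.502 FPKM in control libraries (limma adjusted p = 0.000311). CREB3 rose 2.02-fold (limma adjusted p = 5.79e-05). CREB3L1 fell to 17.8 ± 0.401 FPKM with Agrimol B, against 32.0 ± 1.5 FPKM in control libraries (limma adjusted p = 8.98e-05). MLX, at 24.5 ± 1.85 FPKM with Agrimol B and 21.3 ± 0.912 FPKM in control libraries, did not pass (limma adjusted p = 0.0519). CREB3L2 did not pass either (limma adjusted p = 0.45).

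Enzymes and resident membrane proteins of the Golgi were split: of 35 tested, 8 rose and 8 fell, and the median log2 difference was -0.03. With median-ratio or quantile scaling 7 rose and 12 fell. GLG1, a resident glycoprotein, rose 1.84-fold to 30.3 ± 0.228 FPKM with Agrimol B, against 16.5 ± 1.05 FPKM in control libraries (limma adjusted p = 0.000108). GALNT10, which starts O-linked glycans, fell to 7.09 ± 0.833 FPKM with Agrimol B, against 13.2 ± 1.84 FPKM in control libraries (limma adjusted p = 0.00211). Each of these list counts is to be read against the 30.6% of tested genes called higher and the 21.4% called lower, and no list was tested as a whole.

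**Figure D4:**
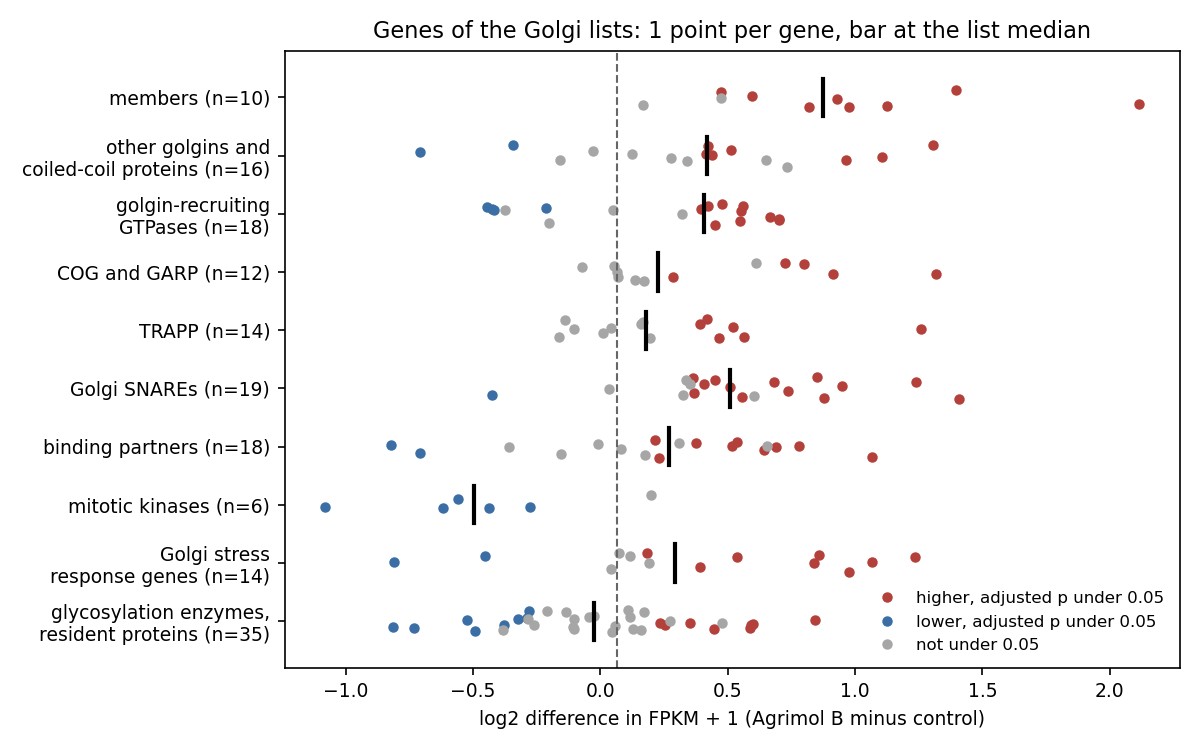
Log2 difference of FPKM + 1 (Agrimol B minus control) of every tested gene of the 10 members and of 9 lists of Golgi genes around them, with the number of genes tested beside each name. Red and blue points passed an adjusted p of 0.05 over all tested genes, black bars are list medians and the dashed line is the median of all tested genes. The members have the highest median (0.87), the mitotic kinases the lowest (-0.50), and the glycosylation enzymes and resident proteins lie on both sides of 0. The members were proposed with these differences known.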

How the data were processed

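RNA of 6 HOS libraries (3 with Agrimol B, 3 control) was sequenced after stranded mRNA library preparation, per the labels' protocols. The authors deposited FPKM values, 1 column for each library. Per the submitters' processing notes, HISAT, Trimmomatic, cutadapt, FastQC and hg38 were used, without stated roles. How FPKM was computed, on which annotation and with what strand setting or filter was not stated. Columns were matched to samples by the description of each. For the controls the 2 letters of the column stand in reverse order in the description, beside the same digit.

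Values were analysed as log2(FPKM + 1), a scale that understates the change of low genes. Genes averaging 1 FPKM or more over all libraries (12143 of 16376, all 10 members included) were tested for Agrimol B minus control with limma 3.58.1 in R 4.3.3 (two-sided; group term, empirical Bayes with a variance trend), and p-values were adjusted by Benjamini-Hochberg over all 12143, with 0.05 as threshold. The fit was tested on simulated data. Folds are ratios of mean FPKM. Reads per value are unknown, so precision rests on the 3 libraries of each group. The members, the lists and the motifs were chosen with earlier results of these data known. Genes named are the members, all tested further golgins, and of every other list up to 2 called genes with the largest differences and no overlap of groups; others are marked. The single values of 2 such genes are not reported here, though list counts and medians include them. Alternatives were another pseudocount (0.1), no filter or one of 5 FPKM, median-ratio and quantile scaling, a replicate block, and leaving out each library. Coordinates, overlaps and 50-base stretches shared between genes (either strand, longest principal transcript) are from GENCODE 29 on GRCh38, and promoters from RefSeq on GRCh38.p14. Python 3.11.15 with pandas 2.3.3, numpy 2.4.6 and matplotlib 3.10.9 did the remaining steps.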

Additional observations from a re-analysis of the deposited data

How the results depend on the processing

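Over the 12 alternatives the members called numbered 7 to 8, all of them higher, and their median log2 difference ran from 0.79 to 0.95. The genes called ran from 4735 of 8882 tested with the filter of 5 FPKM to 6882 of 16376 without a filter. In the main fit 6311 of 12143 were called. The calls of members are a description, because the members were proposed with the differences known. The number called in each of the 9 other lists, both directions together, moved by no more than 1.5 times, but some counts of lower genes did. Among TRAPP subunits 2 were lower with either scaling and 1 without Agrimol B replicate 3, against 0. Among Golgi stress response genes 1 was lower without Agrimol B replicate 1 and with the filter of 5 FPKM, and among binding partners 1 with that filter, against 2 in each list. That filter left fewer genes tested, 11 against 14 Golgi stress response genes and 16 against 18 binding partners. GOLGA4 was the member whose call changed: it was lost without a filter, with either scaling and when any control library was left out, its log2 difference running from 0.37 to 0.72. Among genes not called, the log2 difference of GORASP2 turned to -0.043 without control replicate 2 and ran up to 0.341 when other libraries were left out. That of GOLGA7 turned to 0.32 without Agrimol B replicate 1 (then called, adjusted p = 0.0192) and to 0.029 without control replicate 2, and was otherwise as low as -0.202. GORASP1 was called in 0 of the 13 fits. CCDC91 lost its call in 4 alternatives, and GCC2, BICD1, GOLGA8A and GOLM1 gained one in 1 or 2, as did GOLGA7 in 1; the causes were not tested. With median-ratio scaling the calls over all genes were 3067 higher and 3164 lower, against 3713 and 2598.

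Deviations of same-numbered libraries correlated at -0.015 to 0.037, and those of differently numbered libraries at -0.066 to 0.069. These values give no sign that the replicate numbers pair the libraries, but they cannot exclude a shared batch. With the replicate block 5776 genes were called in all, 8 members among them, and the median log2 difference of members stayed at 0.87. GOLGA8A was called only with that block (adjusted p = 0.00445).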
